A study of Rattus norvegicus with 939 samples.

Results

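The genes described here are 8 members of the retinoid pathway, taken by name from the 14218 genes that the platform annotation named on the arrays: Cyp26a1, Cyp26b1, Rarb, Dhrs3, Aldh1a1, Lrat, Crabp2 and Stra6. All 8 were measured and tested, each through the probe set with its highest mean signal. Cultured primary rat hepatocytes were measured on 939 arrays, 826 of them with 1 of 125 compounds and 113 with vehicle alone. The cells had been exposed for 0.67 d (436 arrays) or 1 d (503 arrays). Titles of control arrays name dimethyl sulfoxide (DMSO) as the vehicle, but not on every control array. A compound at 1 dose in 1 hybridization campaign is called a treatment below, and there were 147 treatments, 128 of them in campaigns 1 to 3 with both exposure times. The 2 retinoids were tretinoin (all-trans retinoic acid) at 156 uM, with 3 arrays at each time against 16 control arrays of control set 5, and isotretinoin (13-cis retinoic acid) at 500 uM, with 3 arrays at each time against 8 control arrays of control set 6. The 2 control sets had no array in common. The labels give neither the strain, sex and age of the rats nor whether replicate arrays came from separate cultures, so p-values measure the spread between arrays, which may be technical. Titles of control arrays carry date codes, 8 among the tretinoin and 4 among the isotretinoin controls, without saying what the date marks. The main fits over both times counted arrays of the same replicate number at 0.67 d and 1 d as independent. Their p-values can therefore be too small where such arrays repeat each other.

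Retinoids are derivatives of vitamin A. Retinol is stored in the liver as esters, mainly in stellate cells, through Lrat, and is oxidized through retinal to retinoic acid, the last step by the Aldh1a enzymes, while Dhrs3 reduces retinal back to retinol. Stra6 is a receptor that takes up retinol, and Crabp2 binds retinoic acid inside the cell. Retinoic acid acts on nuclear receptors, among them Rarb, and is cleared by the cytochromes Cyp26a1 and Cyp26b1. Cyp26a1 and Rarb are textbook targets of the receptors, which bind direct repeats of a 6-base element separated by a spacer of 5 bases in their promoters.

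That repeat was looked for in the RefSeq promoters of the rat genome build GRCr8 (250 bases before to 50 after the annotated start), on either strand, the first element and the second each being AGGTCA or AGTTCA or GGGTCA or GGTTCA. It was present in 2 of the 8 member promoters, those of Cyp26a1 and Rarb, and in 0.382% of all 33469 promoters searched. Since these 2 genes are textbook targets with this repeat, the matches were known in advance, and the share is no test of them. The Cyp26a1 sequence below covers the 250 bases before the start, at chr1:244883572-244883821 on the plus strand, and the Rarb sequence covers 30 bases just after its start, at chr15:11336410-11336439 on the plus strand. Both are shown because the repeat is the element through which retinoic acid receptors are known to act, and the capitals mark it.
Cyp26a1: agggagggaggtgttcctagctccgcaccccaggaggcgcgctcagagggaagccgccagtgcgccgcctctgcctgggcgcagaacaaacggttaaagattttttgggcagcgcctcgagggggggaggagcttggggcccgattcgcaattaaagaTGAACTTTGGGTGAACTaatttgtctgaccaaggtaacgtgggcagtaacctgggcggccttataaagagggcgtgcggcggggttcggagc
Rarb: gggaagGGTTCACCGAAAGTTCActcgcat
In Cyp26a1 the repeat reads on the strand opposite to the gene, from position -92 to -76 before the start, and in Rarb on the strand of the gene, from position 25 to 41 after it. A match describes the letters of the sequence and does not show that a receptor was bound there, and no match in the other 6 windows concerns these windows alone.

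The first question was which members changed in hepatocytes given retinoic acid itself. Tretinoin raised the clearance enzymes Cyp26a1, by 12.96-fold, and Cyp26b1, by 6.65-fold, and no other member was called. A gene was called at a Benjamini-Hochberg adjusted p of 0.01 or less in limma's moderated test over all 14218 genes together with a change of at least 1.5-fold. By this rule 7.54% of all genes were called with tretinoin and 2.73% were called higher, against 2 of the 8 members, both higher. Isotretinoin also raised Cyp26a1, by 3.14-fold, and Cyp26b1, by 2.14-fold, whereas the receptor gene Rarb, Dhrs3 and Aldh1a1 fell. With isotretinoin 21.2% of all genes were called and 9.32% were called higher, against 5 members called, 2 of them higher. The doses of the retinoids differed, so their values are given side by side and were not tested against each other.

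**Figure D1:**
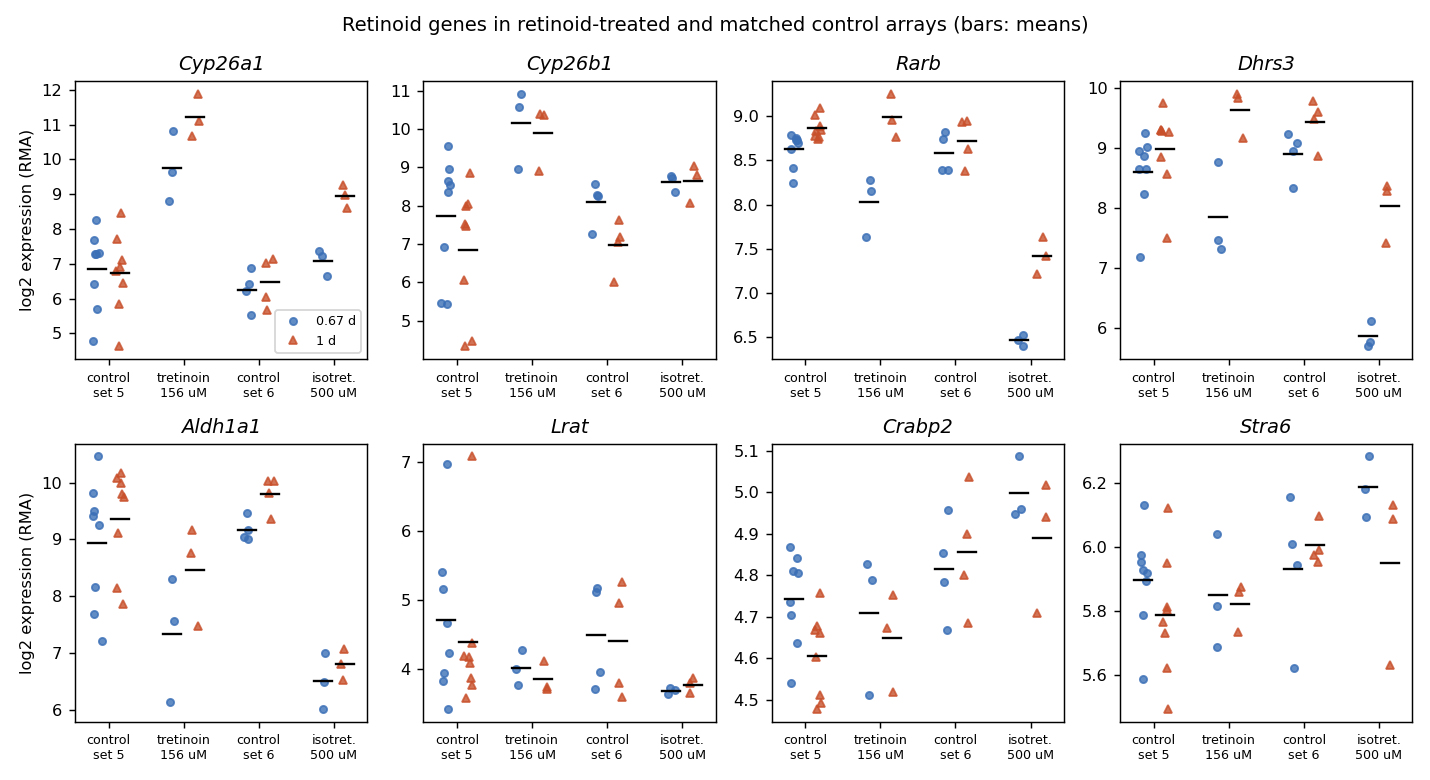
Deposited log2 expression of the 8 genes (y axis, scales differ between panels) on each array of tretinoin, isotretinoin and their control sets (x axis); circles are 0.67 d, triangles 1 d and bars group means. Cyp26a1 with tretinoin lies between 8.79 and 11.89, above all 16 control arrays, the highest of which is at 8.46.

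Cyp26a1 values on the deposited log2 scale were 8.79, 9.63 and 10.81 at 0.67 d of tretinoin and 10.68, 11.10 and 11.89 at 1 d. The 16 control arrays had a lowest value of 4.63, a median of 7.01 and a highest value of 8.46. All 6 treated arrays were above all control arrays, at a log2 difference of 3.70 (SE 0.49, adjusted p = 3.27e-06). Within 2 hybridization days that held treated and control arrays of the same exposure time, the difference was 3.53 and 4.03 at 0.67 d and 6.05 and 4.71 at 1 d, from 1 or 2 arrays a side. With isotretinoin Cyp26a1 was at 6.65, 7.24 and 7.36 at 0.67 d and at 8.60, 8.99 and 9.25 at 1 d, against 5.53 to 7.13 with a median of 6.32 on the 8 control arrays. Of the 6 treated arrays 5 were above all control arrays, among them all 3 at 1 d, and the difference over both times was 1.65 (SE 0.32, adjusted p = 0.000404). Of its arrays 4 could be set against 1 control array of the same hybridization day and exposure time, which gave 1.59, 2.93 and 3.59 at 1 d and 0.44 at 0.67 d. At 0.67 d alone the difference was 0.82, with an adjusted p of 0.0504.

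Cyp26b1, the second clearance enzyme, was at 8.96, 10.58 and 10.92 at 0.67 d of tretinoin and at 8.90, 10.37 and 10.40 at 1 d. Its control arrays spread from 4.33 to 9.56 with a median of 7.75. Control arrays numbered 1 and 3 were low at both times (5.45 and 4.33, 5.46 and 4.49), and those numbered 8 high (9.56 and 8.86). The fit over both times counted such arrays as independent. Of the 6 treated arrays 4 were above the highest control array, and the log2 difference was 2.73 (SE 0.65, adjusted p = 0.00188). Within day and exposure time it lay between 1.92 and 4.41. The call was lost at each time alone (adjusted p = 0.0566 at 0.67 d and 0.0329 at 1 d), without replicate 2 (0.0179) and without replicate 3, where the difference was 2.08 (0.0339). With isotretinoin Cyp26b1 lay between 8.07 and 9.04, against 6.01 to 8.56 in the controls, a difference of 1.10 (SE 0.28, adjusted p = 0.00393). That call was lost without replicate 1 (adjusted p = 0.0324), without replicate 2 (0.0368) and without either of 2 single arrays at 1 d (0.0128 and 0.0123). It was also lost in an ordinary linear model (0.0166), against all controls of the campaign (0.0330) and at 0.67 d alone (0.171). The second probe set of Cyp26b1 differed by 2.08 (SE 0.38) with tretinoin and by 0.81 (SE 0.14) with isotretinoin, in a fit over the members' probe sets alone.

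Markers of sinusoidal endothelial cells, which the cultures could hold, are given beside Cyp26b1. With tretinoin 0 of 5 endothelial markers were called, and the mean log2 level of the list lay between 4.91 and 7.06 on treated and between 4.73 and 6.80 on control arrays. With isotretinoin 1 of 5 (Kdr) was called lower, and the list lay between 4.98 and 5.59 against 5.27 and 5.796. The endothelial markers' part in the Cyp26b1 values was not tested, and in bulk cultures fewer cells of a type and less RNA per cell cannot be told apart.

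Rarb, the receptor gene, did not pass the test with tretinoin, at a log2 difference of -0.24 (95% interval -0.48 to 0.01, adjusted p = 0.131). It was at 7.63, 8.16 and 8.28 at 0.67 d and at 8.77, 8.96 and 9.25 at 1 d, and its controls lay between 8.24 and 9.09. At 0.67 d alone the difference was -0.60 (adjusted p = 0.00996) and passed both bounds in the lower direction, and at 1 d it was 0.12 (adjusted p = 0.503). With isotretinoin Rarb was at 6.40, 6.47 and 6.53 at 0.67 d and at 7.21, 7.41 and 7.63 at 1 d, all below the lowest of the 8 controls at 8.38. It fell by 1.71 on the log2 scale (SE 0.15, 3.27-fold, adjusted p = 9.45e-08), and within day and exposure time the 4 differences lay between -2.34 and -0.97.

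Dhrs3, the retinal reductase, differed by -0.05 with tretinoin (95% interval -0.71 to 0.61, adjusted p = 0.928). Its values were 7.31, 7.48 and 8.76 at 0.67 d and 9.16, 9.83 and 9.91 at 1 d, around controls of 7.18 to 9.76. This value averaged opposite signs, -0.75 at 0.67 d (adjusted p = 0.207) and 0.65 at 1 d (adjusted p = 0.274). With isotretinoin it was at 5.70, 5.77 and 6.12 at 0.67 d, below every control, and at 7.43, 8.29 and 8.37 at 1 d, against controls of 8.33 to 9.78. The fall was 2.22 on the log2 scale (SE 0.27, 4.65-fold, adjusted p = 4.63e-06), at -3.04 for 0.67 d and -1.40 for 1 d, and the 4 differences within day and exposure time lay between -3.26 and -0.49.

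Aldh1a1, which oxidizes retinal to retinoic acid, differed by -1.25 with tretinoin (SE 0.44, adjusted p = 0.0297), and its groups overlapped, at 6.14 to 9.17 on treated and 7.21 to 10.46 on control arrays. Against all controls of the campaign the value was -1.17 and passed (adjusted p = 0.00256), as it did without replicate 2 at -1.84 (0.00745), while without replicate 1 it was -0.62 (0.389). With isotretinoin Aldh1a1 lay between 6.01 and 7.07, below all controls at 9.01 to 10.03, and fell by 2.84 (SE 0.16, 7.14-fold, adjusted p = 7.35e-10), and the 4 differences within day and exposure time lay between -3.49 and -2.28.

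**Figure D2:**
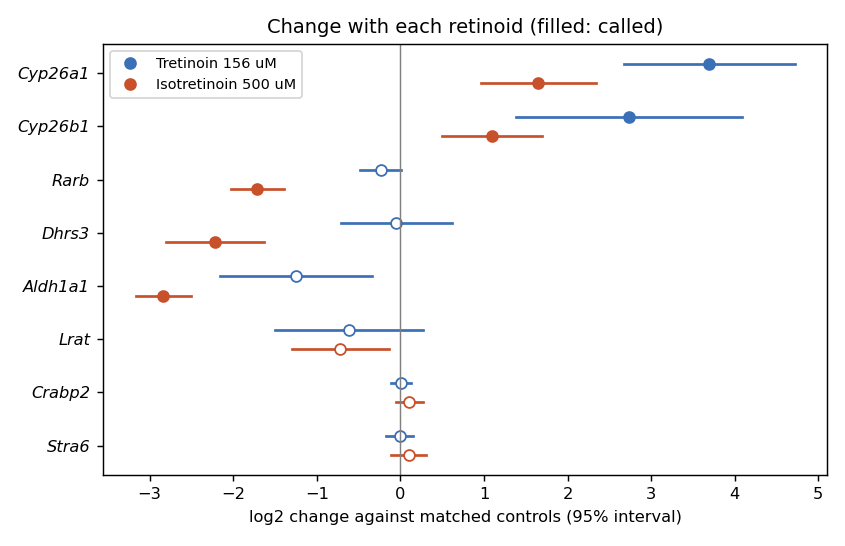
Log2 change of the 8 genes (y axis) against matched controls (x axis) with tretinoin and isotretinoin; lines are 95% intervals and filled points are called. Cyp26a1 and Cyp26b1 are right of 0 with both retinoids, while Rarb, Dhrs3 and Aldh1a1 are filled only for isotretinoin, left of 0.

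The storage enzyme Lrat, the binding protein Crabp2 and the uptake receptor Stra6 were not called with either retinoid. Their mean signals in the 104 control arrays of campaigns 1 to 3 stood at percentiles 21.3, 22.6 and 37.3 among genes. Signals this low limit what a missing call can show. Lrat differed by -0.61 (95% interval -1.50 to 0.27) with tretinoin and by -0.72 (-1.30 to -0.13, adjusted p = 0.0406) with isotretinoin. Its 6 isotretinoin arrays lay between 3.64 and 3.88, near the lower end of the signal range, and its controls between 3.60 and 5.26. Crabp2 differed by 0.00 (-0.12 to 0.13) and 0.11 (-0.05 to 0.27), and Stra6 by -0.01 (-0.17 to 0.15) and 0.10 (-0.11 to 0.31). The other 4 probe sets of Stra6 differed by -0.12 to 0.23 with tretinoin and by -0.12 to 0.09 with isotretinoin. Over all arrays they correlated with the chosen probe set at r of only 0.06 to 0.59.

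Whether the response at 1 d differed from that at 0.67 d was tested as an interaction of time and treatment. No member passed an adjusted p of 0.05 in limma with either retinoid. The background was 0.0211% of all genes for tretinoin and 0.429% for isotretinoin, and at an unadjusted p under 0.05 there were 2 and 4 of the 8 members, against 6.74% and 9.53% of all genes. The replicate numbers paired the isotretinoin arrays with their controls, since all 6 same-numbered pairs deviated together. With the replicate number as a block 4 of 8 members passed for isotretinoin, against 2.45% of all genes. The change at 1 d exceeded that at 0.67 d by 1.66 (SE 0.35, adjusted p = 0.0268) for Cyp26a1 and by 1.14 (SE 0.18, adjusted p = 0.00611) for Cyp26b1. It was less far below 0 at 1 d, by 0.82 (SE 0.13, adjusted p = 0.00734), for Rarb and by 1.63 (SE 0.33, adjusted p = 0.0231) for Dhrs3. For Cyp26b1 the isotretinoin mean hardly moved, at 8.62 at 0.67 d and 8.63 at 1 d, while the control mean fell from 8.09 to 6.97. For Cyp26a1 the isotretinoin mean rose from 7.08 to 8.95, with control means of 6.26 and 6.47.

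The other genes of the pathway, 47 measured genes of enzymes, binding proteins, receptors and reported targets, were counted from fixed lists. With tretinoin 0 were called higher and 4 lower, with a median log2 change of -0.14 against 0.02 over all genes. Of all genes 2.73% were called higher and 4.81% lower with tretinoin. With isotretinoin 1 was called higher and 11 lower, with a median of -0.22 against 0.03 over all genes. Of all genes 9.32% were called higher and 11.8% lower with isotretinoin. Bco1, which splits beta-carotene into retinal, fell by 1.20 on the log2 scale (SE 0.13) with tretinoin and by 2.27 (SE 0.16) with isotretinoin, and the retinol dehydrogenase Rdh16 fell by 0.68 (SE 0.11) and 0.78 (SE 0.09). Of 13 measured genes listed as responsive to retinoic acid, 0 were called higher with either retinoid, against 2.73% and 9.32% of all genes. With tretinoin the co-regulator Nrip1 (0.37, adjusted p = 0.00112) and the homeobox gene Meis2 (0.35, adjusted p = 0.000358), named after their values were seen, passed the p bound in the higher direction but were under 1.5-fold. Tnfaip2 fell by 0.71 (SE 0.21) with tretinoin and by 2.46 (SE 0.24) with isotretinoin, and Rarres1 by 0.66 (SE 0.18) and 1.21 (SE 0.15). Tgm2, a transglutaminase known as a retinoic acid target, fell by 2.14 (SE 0.14) with isotretinoin, and Adh4, an alcohol dehydrogenase that can oxidize retinol, by 1.29 (SE 0.17). Of the 5 other receptor genes 0 were called with tretinoin. With isotretinoin Rxrb rose by 0.79 (SE 0.10) and Rxrg fell by 1.07 (SE 0.16).

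Hepatocyte markers are given beside these values. With tretinoin 3 of 10 were called (Pck1 higher, Cps1 and Fgb lower), and with isotretinoin 4 of 10, all lower. The mean log2 level of the list lay between 11.25 and 11.71 with tretinoin against 11.37 and 11.85 in its controls, and between 10.85 and 11.14 with isotretinoin against 11.54 and 11.82. Albumin differed by -0.02 and -0.04, from control means of 14.34 and 14.37. Their part in the members' values was not tested.

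Over all 147 treatments, which often shared control arrays and so are not independent of each other, a member was called higher in 16 treatments and lower in 91. Aldh1a1 was called lower in 68 treatments (46.3%), Dhrs3 in 66 (44.9%), Rarb in 56 (38.1%), Cyp26b1 in 38 (25.9%) and Cyp26a1 in 34 (23.1%), against 4.37% of all gene and treatment pairs. Calls in the higher direction were 8 for Aldh1a1, 7 for Cyp26a1, 3 for Cyp26b1, 3 for Dhrs3 and 2 for Rarb, against 3.27% of all pairs. Lrat was called lower in 3 treatments, Crabp2 higher in 1 and Stra6 in 0. The SD of the log2 change over the 128 treatments of campaigns 1 to 3 was 1.53 for Aldh1a1, 1.23 for Cyp26b1, 1.15 for Dhrs3, 1.10 for Cyp26a1 and 0.80 for Rarb. It was 0.48 for Lrat, 0.15 for Crabp2 and 0.11 for Stra6, with a median of 0.21 over all genes.

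**Figure D3:**
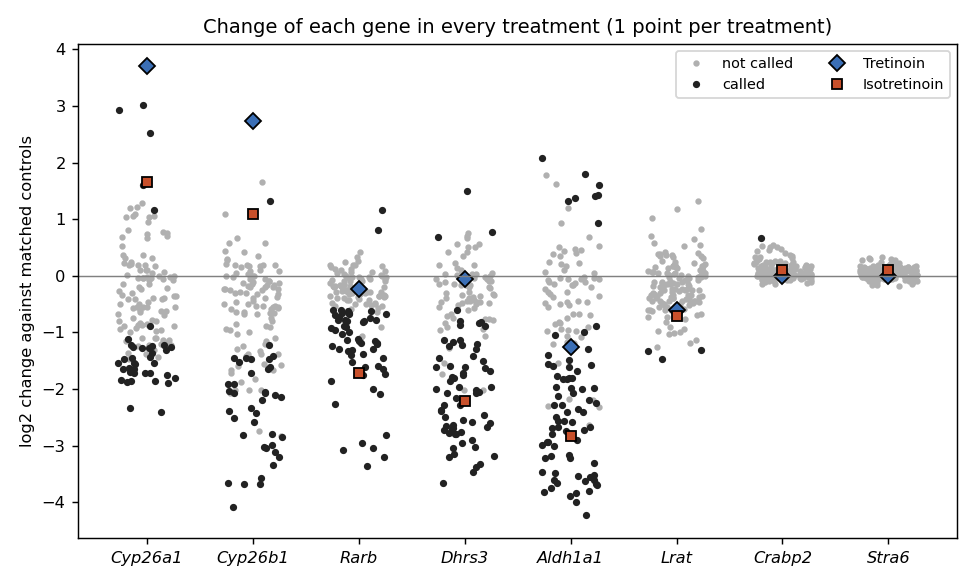
Log2 change against matched controls (y axis) of each gene (x axis) in every treatment, 1 point per treatment, black where called; diamonds are tretinoin and squares isotretinoin. The tretinoin diamond is the highest point for Cyp26a1 (3.70) and Cyp26b1 (2.73), and most black points of Rarb, Dhrs3 and Aldh1a1 lie below 0.

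Tretinoin gave the largest rise of Cyp26a1 among all treatments. The next were cytochalasin B at 167 uM, an inhibitor of actin filaments, and staurosporine at 1.3 uM, a broad kinase inhibitor. Cyp26a1 with cytochalasin B was at 8.95, 9.75 and 10.68 at 0.67 d and at 9.08, 9.87 and 10.55 at 1 d, above the 16 controls it shared with tretinoin, at a difference of 3.02 (SE 0.46, adjusted p = 2.84e-05). With staurosporine it was at 8.84, 9.65 and 9.68 and at 8.42, 9.65 and 9.98, against 5.84 to 7.01 in 6 controls, at a difference of 2.93 (SE 0.26, adjusted p = 3.85e-06). The same 2 compounds were the only treatments that called Rarb higher, by 1.16 (SE 0.11) and 0.80 (SE 0.14), with treated arrays above all controls in both. They also raised Dhrs3, by 1.50 (SE 0.27) and 0.77 (SE 0.13). Dexamethasone at 456 uM, a glucocorticoid, raised Cyp26a1 by 2.52 (SE 0.25) and Dhrs3 by 0.68 (SE 0.15). All 6 treatments with 2 or more members higher had Cyp26a1 among them. These were the 2 retinoids, cytochalasin B, staurosporine, dexamethasone and the anthracycline idarubicin at 1.5 uM, which raised Cyp26a1 by 1.61 (SE 0.40). Only the 2 retinoids had Cyp26a1 and Cyp26b1 both higher. Cyp26b1 was called lower with staurosporine (-2.18), dexamethasone (-2.79) and idarubicin (-2.80), and was at -1.15, not called, with cytochalasin B. Idarubicin, dexamethasone for Cyp26a1, and these Cyp26b1 values were named after the values were seen.

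The lowest Cyp26a1 changes came from 2 kinase inhibitors, Mln-518 at 51 uM (-2.41, SE 0.25) and gefitinib at 35 uM (-2.34, SE 0.25), and from the microtubule poison vinblastine at 45 uM (-1.89, SE 0.44). Mln-518 arrays lay between 4.26 and 4.98 and gefitinib arrays between 4.31 and 5.23, below their 8 shared controls at 6.46 to 8.02. The mean change of the 6 Kupffer cell markers was -2.65 with Mln-518 and -2.54 with gefitinib. That of the hepatocyte markers was -0.97 and -0.69, and that of the endothelial markers -1.66 and -0.69. Over the 128 treatments Cyp26a1 correlated with the Kupffer list at r = 0.271, the hepatocyte list at 0.631 and the endothelial list at 0.352. The markers' part was not tested. Cyp26a1 and Dhrs3 were both lower in 32 treatments, out of 34 for Cyp26a1 and 66 for Dhrs3. Over the 128 treatments their changes correlated at r = 0.700 (rho = 0.757), with control arrays shared between treatments.

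**Figure D4:**
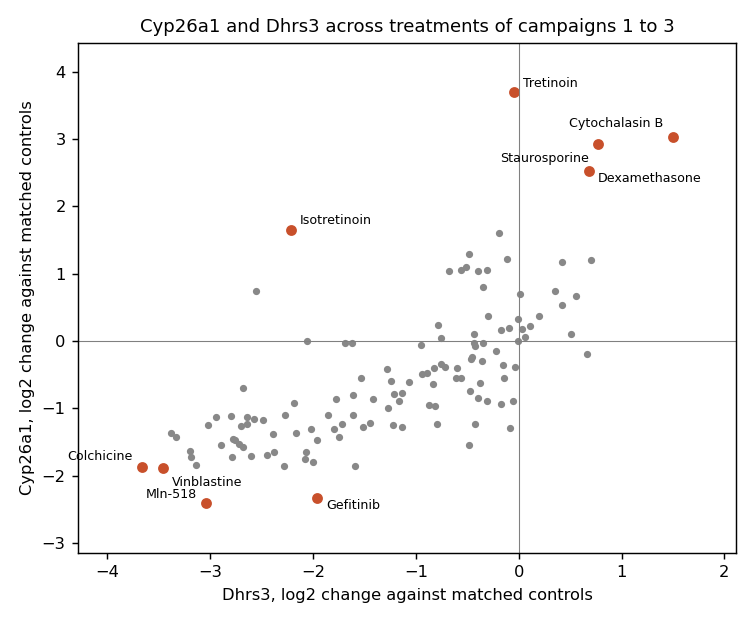
Log2 change of Cyp26a1 (y axis) against that of Dhrs3 (x axis), 1 point per treatment of campaigns 1 to 3. Tretinoin (3.70 at -0.05) and isotretinoin (1.65 at -2.22) lie high for their Dhrs3 change. So do other treatments, such as idarubicin (1.61 at -0.19) and zidovudine at 14800 uM (0.75 at -2.55). Cytochalasin B, staurosporine and dexamethasone are high on both axes.

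Dhrs3 fell most with colchicine at 2000 uM (-3.66, SE 0.24) and vinblastine (-3.46, SE 0.26), both microtubule poisons, and with the alkylating agent lomustine at 560 uM (-3.38, SE 0.19). Colchicine arrays lay between 4.62 and 5.72 against 7.18 to 9.76 in 28 controls. Rarb fell most with lomustine (-3.35, SE 0.16), ifosfamide at 11000 uM (-3.20, SE 0.13) and cisplatin at 63 uM (-3.07, SE 0.12). Its arrays lay between 4.75 and 5.88 with lomustine, between 4.74 and 5.86 with ifosfamide and between 5.19 and 5.77 with cisplatin, and no control of these treatments was below 7.90. Aldh1a1 fell most with 4,4'-Diethylaminoethoxyhexestrol at 20 uM, a vasodilator known for phospholipid storage (-4.23, SE 0.26), with valdecoxib at 450 uM, a cyclooxygenase-2 inhibitor (-3.995, SE 0.25), and with labetalol at 250 uM, a beta blocker (-3.89, SE 0.37). All 3 gave arrays below all their controls.

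Aldh1a1 was also the member with the most calls in the higher direction. It rose by 2.07 (SE 0.30) with chlorambucil at 1540 uM, by 1.80 (SE 0.41) with the fibrate fenofibrate at 250 uM and by 1.59 (SE 0.18) with doxorubicin at 1.5 uM. Chlorambucil arrays lay between 9.82 and 11.35 against 6.91 to 9.39 in 10 controls, and doxorubicin arrays between 10.21 and 11.80 against 9.01 to 10.03. Fenofibrate arrays overlapped with their controls.

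Of the 147 treatments, 40 had all of Aldh1a1, Dhrs3 and Rarb lower, 27 had 2 of them, 16 had 1 and 64 had none. Treatments with these calls had larger responses over all genes. Where Dhrs3 was lower the median number of genes called was 1902.5, against 60 where it was not called. A call rests on a p adjusted over all genes of the same fit, so it is easier to reach where many genes pass. Part of this contrast is therefore built into the rule. The mean change of the hepatocyte markers was below 0 in 61 of those 66 treatments, at a median of -0.53, against 41 of the 78 without a call, at a median of -0.01. For Aldh1a1 it was below 0 in 65 of 68 treatments and for Rarb in 51 of 56. Albumin was called lower in 0 of these treatments. Over the 128 treatments the hepatocyte marker mean correlated with Dhrs3 at r = 0.778, with Aldh1a1 at 0.724, with Cyp26a1 at 0.631 and with Rarb at 0.624. The part of the size of the response and of the hepatocyte markers in the members' calls was not tested.

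Cyp26b1 moved together with markers of endothelial cells. It was lowest with Mln-518 (-4.09, SE 0.34), the antidepressant amineptine at 1667 uM (-3.68, SE 0.46) and the alkylating agent cyclophosphamide at 1320 uM (-3.68, SE 0.26). Their arrays lay between 3.52 and 4.30, below all controls, which were at 5.68 or higher. Only 7.15% to 11.1% of genes had a control mean below these treated means, so the size and order of these falls are limited by the lower end of the signal range. It was called higher with the 2 retinoids and with nimesulide at 61.7 uM, a cyclooxygenase inhibitor, by 1.33 (SE 0.33). The mean change of the 5 endothelial markers was below 0 in all 38 treatments that called Cyp26b1 lower, at a median of -0.69, and in 81 of the 106 that did not call it, at a median of -0.22. It was 0.46 with tretinoin, 0.53 with nimesulide and -0.31 with isotretinoin. Over the 128 treatments Cyp26b1 correlated with this list at r = 0.781, with the stellate list at 0.514 and with the hepatocyte list at 0.295. The stellate markers were below 0 in 36 of the 38 treatments that called Cyp26b1 lower and in 76 of the 106 that did not call it. Whether the endothelial or stellate markers account for the Cyp26b1 calls was not tested.

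**Figure D5:**
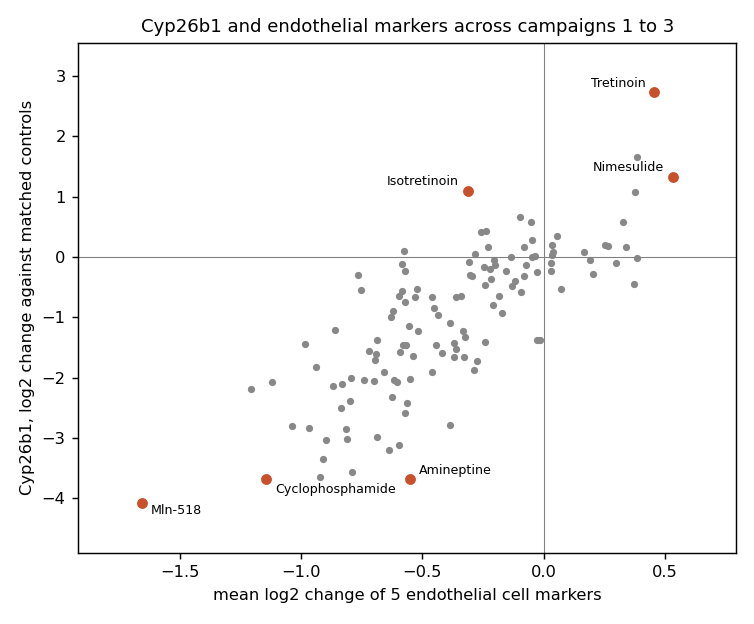
Log2 change of Cyp26b1 (y axis) against the mean log2 change of 5 endothelial cell markers (x axis), 1 point per treatment of campaigns 1 to 3. Isotretinoin lies at 1.10 with the markers at -0.31, whereas tretinoin and nimesulide are high on both axes and Mln-518 is low on both.

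Lrat was called lower with 4,4'-Diethylaminoethoxyhexestrol (-1.48, SE 0.32), amineptine (-1.33, SE 0.36) and gemfibrozil at 2000 uM (-1.32, SE 0.26), and the mean change of the 13 stellate cell markers was below 0 in all 3 and in 111 of the 144 treatments that did not call Lrat. Hepatocyte and endothelial markers were also below 0 in all 3. Treated means of 3.81 to 3.96 were near the lower end of the signal range, with 7.44% to 9.85% of genes below them, which limits the size of these falls. Over the 128 treatments Lrat correlated with the stellate list at r = 0.623, and the markers' part was not tested. Control arrays of Lrat ranged from 3.41 to 7.09 with a median of 4.39. With replicate number as a block Lrat was called lower in 13 treatments and higher in 1. Crabp2 was called higher with cisplatin, at 5.17 to 6.10 against 4.46 to 5.02 in the controls (0.68, SE 0.13). Stra6 changed by no more than 1.26-fold in any treatment, its highest value being 0.33 (SE 0.08) with cytochalasin B.

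Azole antifungals inhibit cytochrome P450 enzymes, among them those that hydroxylate retinoic acid, and were compared with their own controls at clotrimazole 60 uM, itraconazole 10 uM, ketoconazole 90 uM and sulconazole 40 uM. No member was called higher with any of the 4, while 680, 773, 769 and 956 of all genes were called higher, in the order given. With so few members, the absence of higher calls cannot be told apart from this background. Aldh1a1 and Dhrs3 were called lower with all 4 and Rarb with 3, against 5.9%, 7.47%, 9.5% and 6.51% of all genes called lower in this order of compounds. Aldh1a1 fell by 1.29 (SE 0.17), 3.61 (SE 0.43), 1.99 (SE 0.48) and 3.66 (SE 0.40), and Dhrs3 by 2.19 (SE 0.30), 1.59 (SE 0.26), 2.39 (SE 0.33) and 1.80 (SE 0.22). Rarb fell by 1.59 (SE 0.22) with clotrimazole, 0.82 (SE 0.08) with itraconazole and 1.15 (SE 0.15) with ketoconazole, and was at -0.40 (SE 0.15, adjusted p = 0.0468) with sulconazole. Cyp26a1 was called lower with itraconazole (-1.86, SE 0.42, adjusted p = 0.000494). With the other three it was at -0.93 to -1.39, at adjusted p of 0.0161 to 0.344. Cyp26b1 was not called, at values of -1.38 to 0.16. The doses differed and the azoles were not tested against each other.

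Human recombinant TGF Beta-1 at 5 ng/ml, a cytokine that activates stellate cells, was set against 18 control arrays, 9 of which name TGF Beta with another number. It called Aldh1a1 alone among the members, against 2.55% of all genes called lower. Aldh1a1 arrays with TGF Beta-1 were all below the controls, and the fall was 2.67 (SE 0.32, 6.36-fold, adjusted p = 1.04e-06). Dhrs3 was at -0.95 (SE 0.27, adjusted p = 0.0136), Rarb at -0.50 (SE 0.12, 1.41-fold, adjusted p = 0.00317) and Cyp26a1 at -0.06 (SE 0.44).

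In the 104 control arrays of campaigns 1 to 3 the members were compared between 0.67 d and 1 d with the date code of their titles as a block. Cyp26b1 fell by 0.97 on the log2 scale (SE 0.10, adjusted p = 7.74e-12), from a mean of 7.95 to 6.98. It was the 1 member called, against 0.668% of all genes. Aldh1a1 was at 0.42 (SE 0.05), Dhrs3 at 0.34 (SE 0.08), Rarb at 0.17 (SE 0.04) and Lrat at -0.29 (SE 0.05), each at an adjusted p of 0.01 or less but under 1.5-fold. Cyp26a1 was at 0.03 (SE 0.09), with a spread from 4.15 to 8.49 over these arrays.

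Of the compounds given at 3 doses in campaign 5 (omeprazole, methapyrilene, clofibrate, busulfan, allyl alcohol and carbon tetrachloride), 0 of 48 member slopes passed an adjusted p of 0.05 in limma or in an ordinary linear model, against 0.00117% of all slopes. In that campaign each replicate number had a hybridization day of its own, but for 2 arrays, and same-numbered arrays deviated together in all pairs for 5 compounds and in 3 of 9 for methapyrilene. With the replicate number as a block 2 of 48 slopes passed, against 0.212% of all slopes. These were Aldh1a1 with clofibrate, a fibrate, at 0.29 per dose step (SE 0.05, adjusted p = 0.0181) and Cyp26b1 with omeprazole at -0.72 (SE 0.09, adjusted p = 0.0379). Without the block, the 1 slope with an unadjusted p under 0.05 was that of Rarb with omeprazole, a proton pump inhibitor, at -0.18 per dose step (SE 0.08). Its means were 8.57, 8.42 and 8.21 at 365, 400 and 435 uM, against 8.998 in the controls. With methapyrilene Aldh1a1 means were 6.91, 6.77 and 6.88 at 100, 300 and 500 uM against 9.08, already low at the first dose.

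Finally, 7 compounds were given at the same dose for 1 d in campaign 1 and again in campaign 4 or 5. Of the 56 changes of members 38 had the same sign in both, against 63.1% of all gene and compound pairs. The 9 that were called in campaign 1 all kept their sign, as did 99.8% of all 4051 such calls. Of the 9, 0 were called again, at adjusted p of 0.0104 to 0.824, against 19.7% of all such calls. Of these 9, 7 were with chlorpromazine or methapyrilene, for which 30 and 0 genes of all were called in the later campaign. With chlorpromazine at 43.9 uM Aldh1a1 was at -2.96 (SE 0.38) and later at -2.30 (SE 0.44). With methapyrilene at 300 uM Dhrs3 was at -2.57 (SE 0.25) and later at -2.02 (SE 0.88), and Cyp26a1 at -1.85 (SE 0.37) and later at -0.83 (SE 0.84).

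As a description, the genes whose changes over the 128 treatments were most like each member's were listed by Pearson's r. They were Dhrs3 (0.700) and LOC102550246 (0.682) for Cyp26a1, Cd93 (0.780) and Sox18 (0.780) for Cyp26b1, Deptor (0.887) and Nfia (0.887) for Rarb, and Plpp3 (0.911) and C5 (0.902) for Dhrs3. For Aldh1a1 they were Sult1b1 (0.903) and Gjb1 (0.899), for Lrat Rgs4 (0.778) and Abcc9 (0.733), for Crabp2 Zbtb24 (0.726) and Prdm2 (0.707), and for Stra6 Cpne5 (0.782) and Oprm1 (0.769). Treatments share control arrays, so the points behind these values are not independent.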

How the data were processed

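The deposited values were log2 expression values of 31099 probe sets on 939 arrays, made by the authors with RMA (the submitters' notes name no version, and the methods name its frozen form). Array medians lay between 5.41 and 5.73, and the values were used as deposited. The number of arrays limits the precision. Probe sets with 1 gene symbol (20832) were kept, those with several (436) or none (9831) left out, and each of 14218 genes was represented by its probe set with the highest mean. Symbols were matched to RefSeq for 20764 probe sets. Of the listed pathway and marker genes, those not named among the genes tested were left out.

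Compound, dose, time, replicate, extraction and hybridization day came from the labels. Each treatment was set against the vehicle arrays of the same campaign that list its compound as the one they serve. For TGF Beta-1 9 of 18 such arrays, and for Mln-518 6 of 8, carry the name with another running number, which was read as the same compound. Date codes came from the titles of control arrays. For each treatment limma 3.58.1 was fitted in R 4.3.3 with treatment and time as factors and moderated variances, and p-values were adjusted by Benjamini-Hochberg over all genes. The bounds (0.01 and 1.5-fold) follow the methods of the paper. Interactions and dose slopes (doses scored evenly) used 0.05. All tests were two-sided, and intervals cover 95%. The fits were tested on simulated data. Members, gene lists and tests were chosen with earlier results of these data known. Named were, for each member, the 3 largest calls in each direction, the retinoids, azoles and TGF Beta-1, up to 5 other pathway genes per direction and retinoid, and the 2 most alike genes. No arrays were identical.

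Replicate numbers are in the array titles. Deviations from group means of same-numbered treated and control arrays correlated above 0.1 in 6 of 6 pairs for isotretinoin (0.29 to 0.51) and in 1 of 6 for tretinoin, and in every pair for 45 of 128 treatments of campaigns 1 to 3. For the dose series of campaign 5 it was every pair of doses for 5 of 6 compounds. Alternatives were another fold bound, an ordinary linear model (the methods' test), all controls of a campaign, each time alone, median or quantile scaling, all probe sets of a gene through their median, the dimmest genes left out (the bottom tercile by mean), blocks for hybridization day, extraction day or replicate, and leaving out arrays.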

Additional observations from a re-analysis of the deposited data

Results flagged for a closer look

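Among 32 groups of control arrays of the 2 retinoids (8 genes at each time), 1 held an array far from the others, and chance alone marks about 1 in 20 such groups. Lrat stood at 7.09 on 1 of the 8 tretinoin control arrays at 1 d, while the next array was at 4.38 and the lowest at 3.58. The control array with the same replicate number at 0.67 d was also the highest of its 8, at 6.98 against a next value of 5.41. Without the array at 1 d the Lrat difference with tretinoin was -0.42 (SE 0.33) in place of -0.61 (SE 0.43), and without both, a setting chosen after seeing the data, -0.26 (SE 0.21), and it was called in none of these.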

How the results depend on the processing

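With tretinoin 2 members were called, between 1 and 2 when 1 array or 1 replicate number was left out, 3 against all controls of the campaign and 1 at 1 d alone. With isotretinoin 5 were called, between 4 and 5 with arrays left out, and 3 at 0.67 d alone. All genes called numbered 309 with tretinoin and 1240 with isotretinoin at a 2-fold bound, and 613 with tretinoin at 1 d alone. Other pathway genes called with tretinoin were 4, and 1 at a 2-fold bound, and 2 with the ordinary model, at 1 d alone, and with hybridization or extraction day as a block, and 2 to 5 with arrays left out. For time interactions all controls of the campaign gave 2 members with isotretinoin and 1 with tretinoin, and hybridization day as a block gave 2 with isotretinoin. The replicate block gave 4 with isotretinoin and 1, Cyp26a1, with tretinoin. It raised the dose slopes passed from 0 to 2, and without a replicate they were 0 to 4. At a 2-fold bound 0 members changed with time in controls.

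Treatments calling Cyp26a1 fell from 41 to 14 at 0.67 d and 19 at 1 d alone, those calling Cyp26b1 from 41 to 20 and 24, and those calling Dhrs3 from 69 to 44 at 1 d alone. At a 2-fold bound 34 treatments called Rarb. Crabp2 was called in 0 at a 2-fold bound or with hybridization or extraction day as a block, in 3 at 1 d alone, in 7 after median subtraction and in 2 after quantile scaling, and in 1 to 2 without a replicate. Lrat was called in 1 with the ordinary model or at 0.67 d alone, in 0 at 1 d alone or against all controls, in 6 with hybridization day, 10 with extraction day and 14 with replicate as a block, and in 3 to 5 without a replicate. Stra6 was called in 2 after median subtraction. Median subtraction and quantile scaling changed no call of a member with a retinoid. No member called with a retinoid over both times turned in direction. Rarb with tretinoin was called lower at 0.67 d alone (-0.60) and was at 0.12 at 1 d alone. Without both tretinoin control arrays numbered 8, chosen after seeing the data, Aldh1a1 was called as well (-1.48, adjusted p = 0.00474). With the dimmest genes left out Lrat and Crabp2 gave no value, and with hybridization or extraction day as a block 146 treatments could be fitted. The causes were not tested.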
